A study of Mus musculus with 6 samples.

Results

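The genes described here encode 10 secreted growth factors of blood vessels, measured in the left ventricle of mice that lack the muscle protein MURC and in wild-type mice. They are Vegfa, Vegfb, Vegfc, Pgf, Fgf1, Fgf2, Apln, Pdgfa, Pdgfb and Angpt1. All 10 were on the array, each as 1 probe set with a single gene symbol, among 35556 probe sets and 19938 named genes. Fgf2, Vegfb, Apln and Pdgfa were put in the group because their signal was lower in the knockout arrays of this same comparison. Their differences are therefore given as a description with no test, and nothing is supported with them. The other 6 were not picked for a difference. All 10 were also kept by the filter on dim probe sets, with means over the 6 arrays between 5.50 and 9.57 on the log2 scale against a filter at 3.45.

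Total RNA came from 3 knockout and 3 wild-type left ventricles of adult male mice on a C57BL/6 background. MURC is encoded by Cavin4 and belongs to the protein coat of caveolae in muscle. The labels give ages of 11, 11 and 13 weeks for knockout replicates 1, 2 and 3, and of 13, 13 and 12 weeks for wild-type replicates 1, 2 and 3. The sources used here do not give how the allele was made or whether each array is a separate animal, so p-values measure only the spread between these samples.

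Growth of heart vessels is directed by ligands that muscle, vessel and connective tissue cells release and that receptor kinases, or a G protein-coupled receptor in the case of apelin, read on neighbouring cells. Members of the VEGF family act through Flt1, Kdr and Flt4 on blood and lymph vessels, fibroblast growth factors through the Fgfr kinases with heparan sulfate as a cofactor, and angiopoietin 1 through Tek on endothelium. Platelet-derived growth factors recruit pericytes, smooth muscle cells and fibroblasts through Pdgfra and Pdgfrb. In heart muscle, VEGF-B and FGF2 are known as factors made by cardiomyocytes, and apelin as a factor of endothelium that also affects contraction.

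The sequences just upstream of the start sites of Vegfb, Fgf2, Apln and Pdgfa are shown because these members were chosen for their lower signal. Each is the 250 bases before the RefSeq start site in GRCm38.p6, 5′ to 3′ on the gene's own strand, and for Pdgfa before the more upstream of its starts. Capitals mark the GC box GGGCGG, which Sp1-type factors bind, and the hypoxia core ACGTG or GCGTG, on either strand. The windows lie on the minus strand at chr19:6987652-6987901 for Vegfb, at chrX:48034854-48035103 for Apln and at chr5:138994945-138995194 for Pdgfa, and on the plus strand at chr3:37348403-37348652 for Fgf2.
Vegfb: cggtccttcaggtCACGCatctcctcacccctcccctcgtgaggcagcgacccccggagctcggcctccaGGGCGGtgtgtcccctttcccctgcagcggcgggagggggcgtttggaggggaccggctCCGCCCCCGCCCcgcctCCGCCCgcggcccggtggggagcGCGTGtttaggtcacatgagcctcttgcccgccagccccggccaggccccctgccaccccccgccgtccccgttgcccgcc
Fgf2: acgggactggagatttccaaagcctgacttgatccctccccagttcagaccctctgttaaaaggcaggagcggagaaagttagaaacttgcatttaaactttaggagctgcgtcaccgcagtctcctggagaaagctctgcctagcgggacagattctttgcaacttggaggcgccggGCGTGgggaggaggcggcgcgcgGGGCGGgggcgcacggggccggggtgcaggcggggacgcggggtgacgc
Apln: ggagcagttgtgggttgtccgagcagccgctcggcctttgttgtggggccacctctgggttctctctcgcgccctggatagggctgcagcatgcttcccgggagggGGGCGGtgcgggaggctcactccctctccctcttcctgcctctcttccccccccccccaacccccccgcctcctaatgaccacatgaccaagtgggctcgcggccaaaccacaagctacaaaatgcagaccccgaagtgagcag
Pdgfa: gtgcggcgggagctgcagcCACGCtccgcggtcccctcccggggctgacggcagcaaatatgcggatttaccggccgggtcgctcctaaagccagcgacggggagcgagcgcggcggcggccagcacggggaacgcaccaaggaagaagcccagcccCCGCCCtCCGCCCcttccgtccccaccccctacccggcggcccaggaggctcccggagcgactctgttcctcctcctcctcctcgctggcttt

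All 4 windows held a GC box, with 4 sites in Vegfb, 1 in Fgf2, 1 in Apln and 2 in Pdgfa, where 32.7% of 32851 RefSeq windows of the same length held at least 1. A hypoxia core was found at 2 places in Vegfb, at 1 in Fgf2, at 1 in Pdgfa and at none in Apln, and 38.6% of all windows held one. In Vegfb the cores began 237 and 81 bases before the start, and in Fgf2 the core began 72 bases before it. None held the TATA box TATAAA on either strand, which 12.4% of all windows held. The windows were rich in G and C, at 76.4% in Vegfb, 72.4% in Pdgfa, 65.2% in Apln and 62.4% in Fgf2 against a median of 52.4% over all windows. Members whose signals were not lower had GC boxes too, with 2 sites in the upstream window of Vegfa, 2 in that of Vegfc and 2 in that of Pgf. Hypoxia cores in these windows numbered 1 in Pgf and 0 in Vegfa and Vegfc, and the downstream windows held 2 in Vegfa and 0 in Pgf. The downstream window of Pdgfa, not shown, held 0 hypoxia cores and 1 GC box, with 66.4% G and C. The G and C content of the upstream windows was 59.2% in Vegfa, 71.6% in Vegfc and 68.4% in Pgf. A match of letters is a description of the window and not a bound site, and whether the windows share control was not tested.

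Cavin4, the targeted gene, followed the labels on every array. It measured 5.38, 5.74 and 5.59 in the knockout against 8.75, 8.62 and 8.07 in the wild type, a log2 difference of -2.91 (SE 0.18, limma adjusted p = 0.012). That probe set was the only one past the adjusted threshold, which is 0.00402% of the 24898 tested, and its adjusted p was 0.0646 with knockout replicate 1 left out, 0.118 with knockout replicate 3 left out and 0.0777 with wild-type replicate 1 left out. Cardiomyocyte markers were bright in both genotypes, with array means of 14 genes between 11.80 and 11.86. The arrays had medians of 4.60 to 4.71. Knockout replicate 2 stood apart by the atrial myosin light chains, with Myl7 at 7.22 and Myl4 at 8.67 where the other 5 arrays lay between 3.61 and 4.11 and between 5.41 and 5.61. Of the other atrial and conduction genes listed, Nppa at 11.44 and Stard10 at 7.46 were also highest on that array. Stard10 reached 7.42 in wild-type replicate 1. Hcn4, at 5.68, was not highest there, and Sln and Bmp10 were below the filter. These atrial and conduction genes are named here after their values were seen.

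Vegfb, a VEGF family ligand of Flt1 and neuropilin 1, had the lowest difference of the 10 members. Its probe set, 10465559, measured 9.35, 9.47 and 9.06 in the knockout against 9.96, 9.83 and 9.74 in the wild type. All knockout arrays lay below all wild-type arrays, knockout replicate 3 was the lowest, and the nearest arrays of the genotypes were 0.27 apart. The means were 9.29 ± 0.21 and 9.84 ± 0.11 (SD, n = 3), a log2 difference of -0.55 (SE 0.11), so the knockout signal was 68.3% of the wild type. Without knockout replicate 2, the array with atrial transcripts, the difference was -0.64, and without knockout replicate 3 it was -0.43.

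Fgf2, basic fibroblast growth factor, a heparin-binding mitogen that leaves cells without a classical signal peptide, was lower on all knockout arrays as well. Probe set 10491699 measured 5.53, 5.51 and 5.70 in the knockout against 6.18, 6.02 and 6.01 in the wild type. The genotypes did not overlap, and a gap of 0.31 between the nearest arrays was the widest among the 4. Means of 5.58 ± 0.10 and 6.07 ± 0.10 (SD, n = 3) gave a log2 difference of -0.49 (SE 0.09), or 71.2% of the wild-type signal. The difference was -0.455 without knockout replicate 2. This probe set is nearer to the filter than that of Vegfb, and background can compress differences of dimmer probe sets.

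Apln encodes the precursor of apelin, the peptide ligand of the receptor Aplnr. Its probe set, 10604375, measured 6.06, 6.03 and 6.09 in the knockout against 6.46, 6.70 and 6.30 in the wild type. The knockout arrays were tightly grouped and the wild-type arrays spread over 0.40, with no overlap and a gap of 0.21. The log2 difference was -0.43 (SE 0.11), or 74.4% of the wild-type signal, with means of 6.06 ± 0.03 and 6.49 ± 0.20 (SD, n = 3). It depended most on wild-type replicate 2, without which it was -0.32.

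Pdgfa encodes the A chain of platelet-derived growth factor, a ligand of Pdgfra on fibroblasts and other mesenchymal cells. Probe set 10535043 measured 7.03, 7.02 and 6.82 in the knockout against 7.25, 7.28 and 7.23 in the wild type. Again the genotypes did not overlap, with a gap of 0.20, and knockout replicate 3 was the lowest array. Means of 6.96 ± 0.12 and 7.25 ± 0.03 (SD, n = 3) gave a log2 difference of -0.30 (SE 0.08), or 81.4% of the wild-type signal.

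These 4 were the members without overlap between genotypes, all of them lower, where 14.1% of 15298 named genes were lower without overlap and 4.64% were higher without overlap. Since they were chosen by this contrast, nothing is read from that count. They stayed below the wild type with no overlap after quantile normalization and after median centring. Over 15 alternatives each, the difference ran from -0.66 to -0.43 for Vegfb, from -0.55 to -0.40 for Fgf2, from -0.52 to -0.32 for Apln and from -0.37 to -0.23 for Pdgfa. Pdgfa at -0.30 was the smallest difference among the chosen members, and the nearest members outside were Angpt1 and Fgf1, both at -0.10. In bulk tissue, fewer cells of a type and less RNA per cell cannot be told apart.

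**Figure D1:**
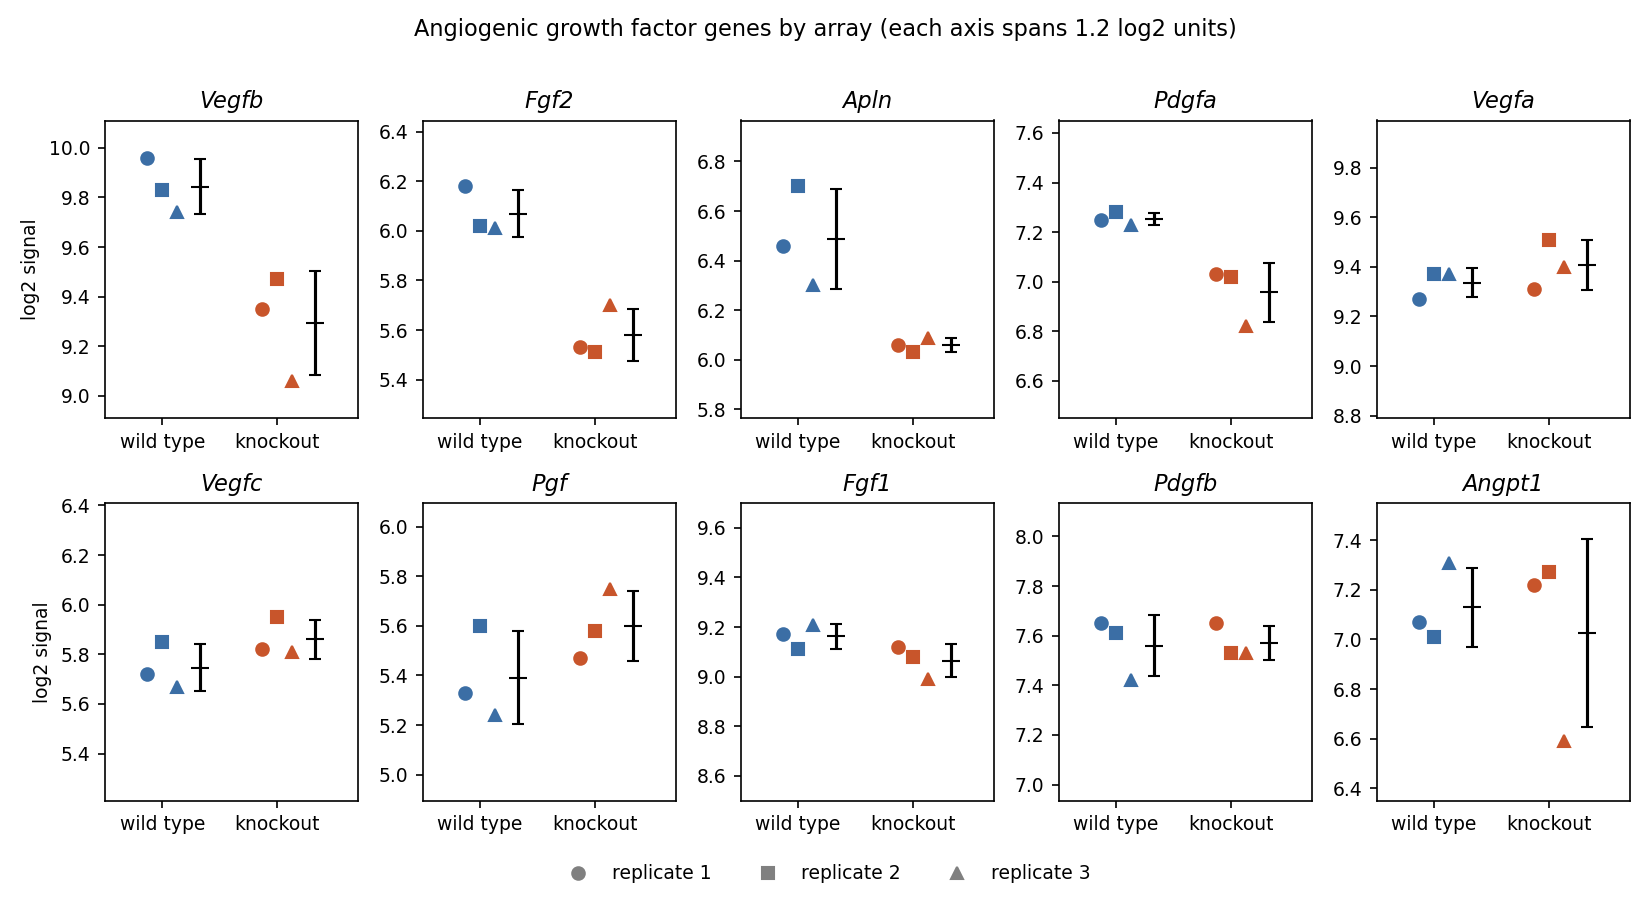
Log2 signal (vertical axis) of the 10 growth factor genes on each array, with wild-type arrays in blue and knockout arrays in orange, symbols for the replicate number and black bars for the mean ± SD (n = 3). For Vegfb, Fgf2, Apln and Pdgfa all knockout arrays lie below all wild-type arrays, and for the other 6 genes the genotypes overlap.

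Age was not balanced between the genotypes, so the 13-week arrays were also set side by side. At 13 weeks Vegfb measured 9.06 in knockout replicate 3 and 9.96 and 9.83 in wild-type replicates 1 and 2, which is 0.84 below their mean on the log2 scale. The same array lay 0.40 below that mean for Fgf2, 0.49 for Apln and 0.45 for Pdgfa. These genes were chosen for a lower knockout signal and their genotypes did not overlap, so the sign of these values was fixed in advance. With 1 knockout array of that age there is no test, and nothing about age is read from them. With age as a covariate over all 6 arrays the difference was -0.66 for Vegfb, -0.40 for Fgf2, -0.35 for Apln and -0.37 for Pdgfa.

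Among the 6 members not chosen for a difference, 4 measured higher and 2 lower in the knockout, with a median log2 difference of 0.04. None passed the limma test over all probe sets, with adjusted p between 0.526 and 0.971, and 0 of the 6 had an unadjusted p under 0.05, where 11.5% of the named genes did. Their genotypes all overlapped. Missing the threshold does not show that these genes had the same level in both genotypes, and the standard errors give the precision.

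Vegfa, a ligand of Kdr and Flt1, is the main growth signal for capillaries. It measured 9.31, 9.51 and 9.40 in the knockout against 9.27, 9.37 and 9.37 in the wild type. The difference was 0.07 (SE 0.07, limma adjusted p = 0.723), opposite in sign to that of Vegfb. Vegfc, the ligand of Flt4 and of lymphatic growth, measured 5.82, 5.95 and 5.81 against 5.72, 5.85 and 5.67, a log2 difference of 0.11 (SE 0.09, adjusted p = 0.642). Pgf, placental growth factor, shares the receptor Flt1 with VEGF-B. It measured 5.47, 5.58 and 5.75 in the knockout against 5.33, 5.60 and 5.24 in the wild type, where wild-type replicate 2 lay among the knockout arrays. Its log2 difference of 0.21 (SE 0.12, limma adjusted p = 0.526) was the highest of the 10.

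Fgf1, acidic fibroblast growth factor, measured 9.12, 9.08 and 8.99 in the knockout against 9.17, 9.11 and 9.21 in the wild type. The genotypes overlapped by 0.01, the difference was -0.10 (SE 0.06) and the limma adjusted p was 0.538. Pdgfb, which endothelium makes to attract pericytes, measured 7.65, 7.53 and 7.53 against 7.65, 7.61 and 7.42. Its log2 difference of 0.01 (SE 0.08, limma adjusted p = 0.971) turned to -0.03 when knockout replicate 1 was left out and to -0.06 for wild-type replicate 3.

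Angpt1, the activating ligand of Tek, measured 7.22 and 7.27 in knockout replicates 1 and 2 and 6.59 in knockout replicate 3. The wild-type arrays measured 7.07, 7.01 and 7.31. Knockout replicate 3 was thus below all other arrays and the other knockout arrays lay within the wild-type range. The log2 difference was -0.10 (SE 0.18, limma adjusted p = 0.858) with all arrays, 0.12 without knockout replicate 3 and -0.42 with age as a covariate. That array was also the lowest of all 6 for Vegfb, Pdgfa and Fgf1, but it was the highest of the knockout arrays for Fgf2, Apln and Pgf.

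**Figure D2:**
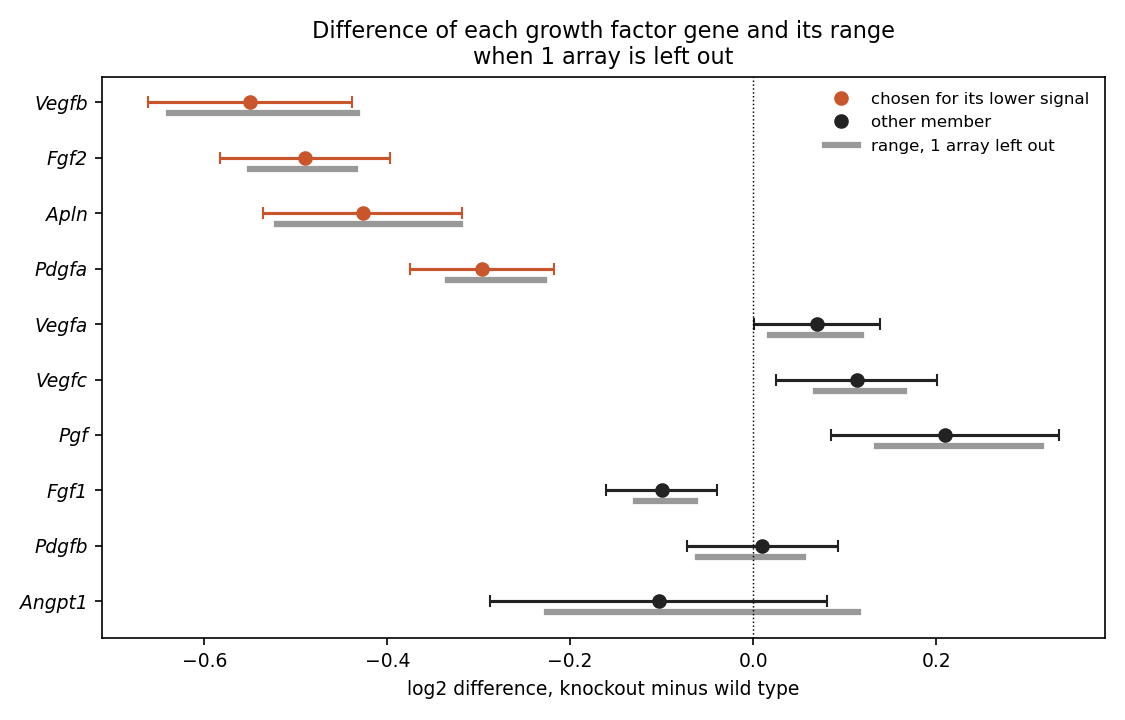
Log2 difference, knockout minus wild type, of the 10 growth factor genes (points, with standard errors from limma) and the range of the difference when 1 array is left out (grey bars). The 4 genes in orange were chosen for their lower signal. Their genotypes do not overlap, so ranges below 0 were fixed in advance, as from -0.64 to -0.43 for Vegfb. The ranges of Pdgfb and Angpt1, which were not so chosen, cross 0.

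Over all 10 members the median log2 difference was -0.10, with 6 lower and 4 higher. The median of 15298 named genes was -0.04, and 62.7% of them were lower in the knockout. The median of the members was -0.02 without knockout replicate 3 and -0.26 with age as a covariate.

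Related ligands were compared within each array, which removes a factor that all probe sets of an array share, but not one that depends on brightness. The sign of such a difference says nothing of which transcript is more abundant, because probe sets differ in their response, and only its change between genotypes is read. Vegfb minus Vegfa was 0.04, -0.04 and -0.34 in the knockout against 0.69, 0.46 and 0.37 in the wild type, a change of -0.62 without overlap. Vegfb minus Pgf was 3.88, 3.89 and 3.31 in the knockout against 4.63, 4.23 and 4.50 in the wild type, a change of -0.76. Vegfb minus Vegfc did not overlap either, with a change of -0.66. Relative to Vegfa, Vegfc and Pgf, Vegfb was lower on all 3 knockout arrays than on any wild-type array. Vegfb was chosen for its lower signal, so nothing is read from this.

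For the fibroblast growth factors, Fgf2 minus Fgf1 was -3.59, -3.57 and -3.29 in the knockout against -2.99, -3.09 and -3.20 in the wild type. The change was -0.39, and the nearest arrays were 0.09 apart. Pdgfa minus Pdgfb was -0.62, -0.51 and -0.71 against -0.40, -0.33 and -0.19, a change of -0.31 without overlap. One side of each pair was chosen for its lower signal, so these values carry no test.

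**Figure D3:**
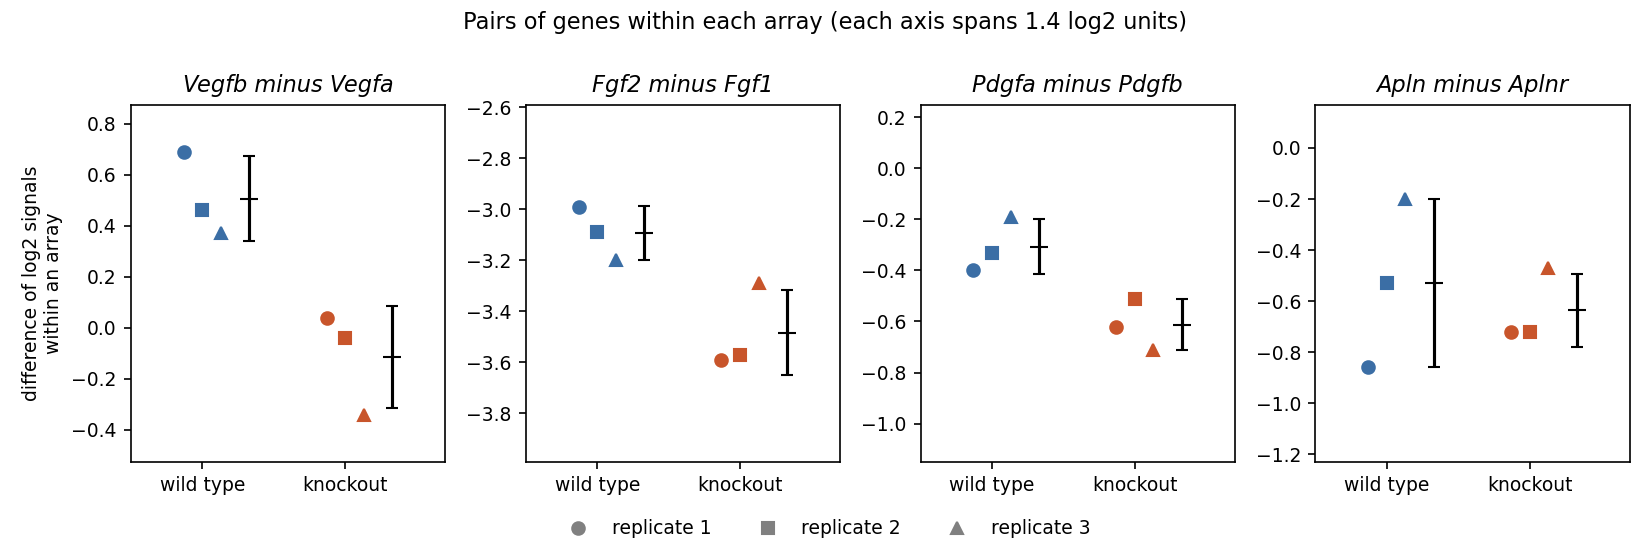
Difference of log2 signals between 2 genes of the same array (vertical axis), with wild-type arrays in blue, knockout arrays in orange and black bars for the mean ± SD (n = 3). Vegfb minus Vegfa, Fgf2 minus Fgf1 and Pdgfa minus Pdgfb do not overlap between genotypes, and Apln minus Aplnr does.

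Receptors of the members were not picked by their differences, but the list was made with earlier results of these data known. Of 14 tested, 7 measured higher and 7 measured lower, the median log2 difference being 0.01, and 0 passed the limma test over all probe sets or had an unadjusted p under 0.05. Flt1 is a receptor of VEGF-A, VEGF-B and placental growth factor. It measured 9.11, 9.13 and 9.21 in the knockout against 9.09, 8.83 and 9.06 in the wild type. The log2 difference was 0.16 (SE 0.08, limma adjusted p = 0.457). Without wild-type replicate 2 that difference was 0.075. Flt1 was the only one of the 14 receptors without overlap, where 18.7% of named genes did not overlap. Nrp1, the co-receptor of VEGF-B, measured a difference of -0.07 and the VEGF receptor genes Kdr and Flt4 of 0.06 and 0.05. Kdr measured -0.08 without wild-type replicate 3.

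Fgfr1, the main FGF receptor of heart muscle, measured 7.13, 6.91 and 7.04 in the knockout against 7.17, 7.01 and 6.96 in the wild type. Its difference was -0.02 (SE 0.09, limma adjusted p = 0.949) as deposited and 0.01 after quantile normalization. The decoy receptor gene Fgfrl1 measured -0.13. Pdgfra measured 0.03 and Pdgfrb -0.15 (limma adjusted p = 0.895 and 0.574), and Tek measured -0.03.

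Aplnr, the apelin receptor, measured 6.78, 6.75 and 6.56 in the knockout against 7.32, 7.23 and 6.50 in the wild type. Wild-type replicates 1 and 2 were above the knockout arrays and wild-type replicate 3 was below all of them. The log2 difference was -0.32 (SE 0.21, limma adjusted p = 0.565), and with 1 wild-type array left out it was -0.17 without replicate 1, -0.21 without replicate 2 and -0.58 without replicate 3. Apln minus Aplnr within an array overlapped between genotypes, with a change of -0.11.

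Beyond the 10 members, 33 genes were listed as other vascular ligands. The list includes Fgf12 and Fgf13, family members that act inside cells and are not secreted ligands. Of the 33, 31 were tested, Fgf13 among them. Of the 31, 13 were higher and 18 lower, with a median of -0.03. None passed the limma test, and 4 of the 31 had an unadjusted p under 0.05, 2 in each direction, against 11.5% of named genes. The genes with the smallest p were Fgf18 and Fgf16 among the lower and Pdgfd and Tgfb3 among the higher. Fgf16, a fibroblast growth factor made by heart muscle, measured 6.60, 6.58 and 6.23 in the knockout against 6.95, 6.70 and 6.80 in the wild type, a log2 difference of -0.35 (SE 0.12, limma adjusted p = 0.28). Fgf18 measured -0.37 (limma adjusted p = 0.222). Pdgfd, a ligand of Pdgfrb, measured 6.70, 6.74 and 6.92 against 6.50, 6.57 and 6.49, a log2 difference of 0.27 (SE 0.08, limma adjusted p = 0.234), and Tgfb3 measured 0.23. The genotypes did not overlap for these 4 ligands, where 18.7% of named genes did not overlap, so 4 of 31 is below that share.

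Genes that bind fibroblast growth factors and VEGF in the matrix gave 9 higher and 8 lower of 17 tested, with a median of 0.03. None passed the limma test and 3 of the 17 had an unadjusted p under 0.05, against 11.5% of named genes. Gpc1, a glypican that carries heparan sulfate, measured 8.70, 8.77 and 8.63 in the knockout against 8.90, 8.81 and 8.99 in the wild type, a log2 difference of -0.20 (limma adjusted p = 0.28). Hs6st1, a heparan sulfate sulfotransferase, measured -0.22 and the syndecan gene Sdc4 -0.16, while Agrn, agrin, measured 0.16 higher. No genotype overlap was seen for these 4 of the 17 genes, against 18.7% of named genes.

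Of 22 listed carriers of the receptor signal inside the cell, 15 were tested and the other 7 were not analysed here. Of the 15, 7 were higher and 8 lower, with a median of -0.08. None passed in limma and 3 of the 15 had an unadjusted p under 0.05, against 11.5% of named genes. Ptpn11, the phosphatase SHP2 that relays growth factor signals to the Ras pathway, measured 8.94, 8.86 and 9.07 in the knockout against 8.59, 8.53 and 8.77 in the wild type. All knockout arrays were above all wild-type arrays, by 0.33 on average (SE 0.09, limma adjusted p = 0.172). Gab1, the docking protein that recruits SHP2, measured -0.27, the FGF receptor substrate gene Frs3 -0.23 and Pik3ca -0.16.

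Early and feedback targets of growth factor receptors were tested for 23 genes, with Apln left out as a member. They gave 9 higher and 14 lower with a median of -0.05. None passed in limma and 5 of the 23 had an unadjusted p under 0.05, all of them lower, where 11.5% of named genes had such a p and 65.7% of such calls over all probe sets were lower. Genotypes did not overlap for 5 of the 23, against 18.7% of named genes. Fos measured 4.68, 4.78 and 4.79 in the knockout against 6.27, 6.07 and 4.83 in the wild type, a log2 difference of -0.97 (SE 0.34, limma adjusted p = 0.28). Egr1 measured 5.61, 5.38 and 5.44 against 7.05, 6.89 and 5.44, and Nr4a1 6.37, 7.30 and 6.91 against 8.36, 8.65 and 7.18. These immediate early genes were high in wild-type replicates 1 and 2 and not in wild-type replicate 3, as was Aplnr. Dusp5, a phosphatase of ERK, measured -0.62 (limma adjusted p = 0.193).

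Those early genes moved in part with the chosen members, and their part in the members' differences was not tested. Without wild-type replicate 1 the differences were -0.49 for Vegfb, -0.44 for Fgf2, -0.44 for Apln and -0.30 for Pdgfa, and without wild-type replicate 2 they were -0.56, -0.515, -0.32 and -0.28 in the same order. Wild-type replicate 3, with low Fos and Egr1, lay above all knockout arrays for each of these 4 genes. They were chosen for a lower knockout signal, so nothing about the early genes is read from these values.

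**Figure D4:**
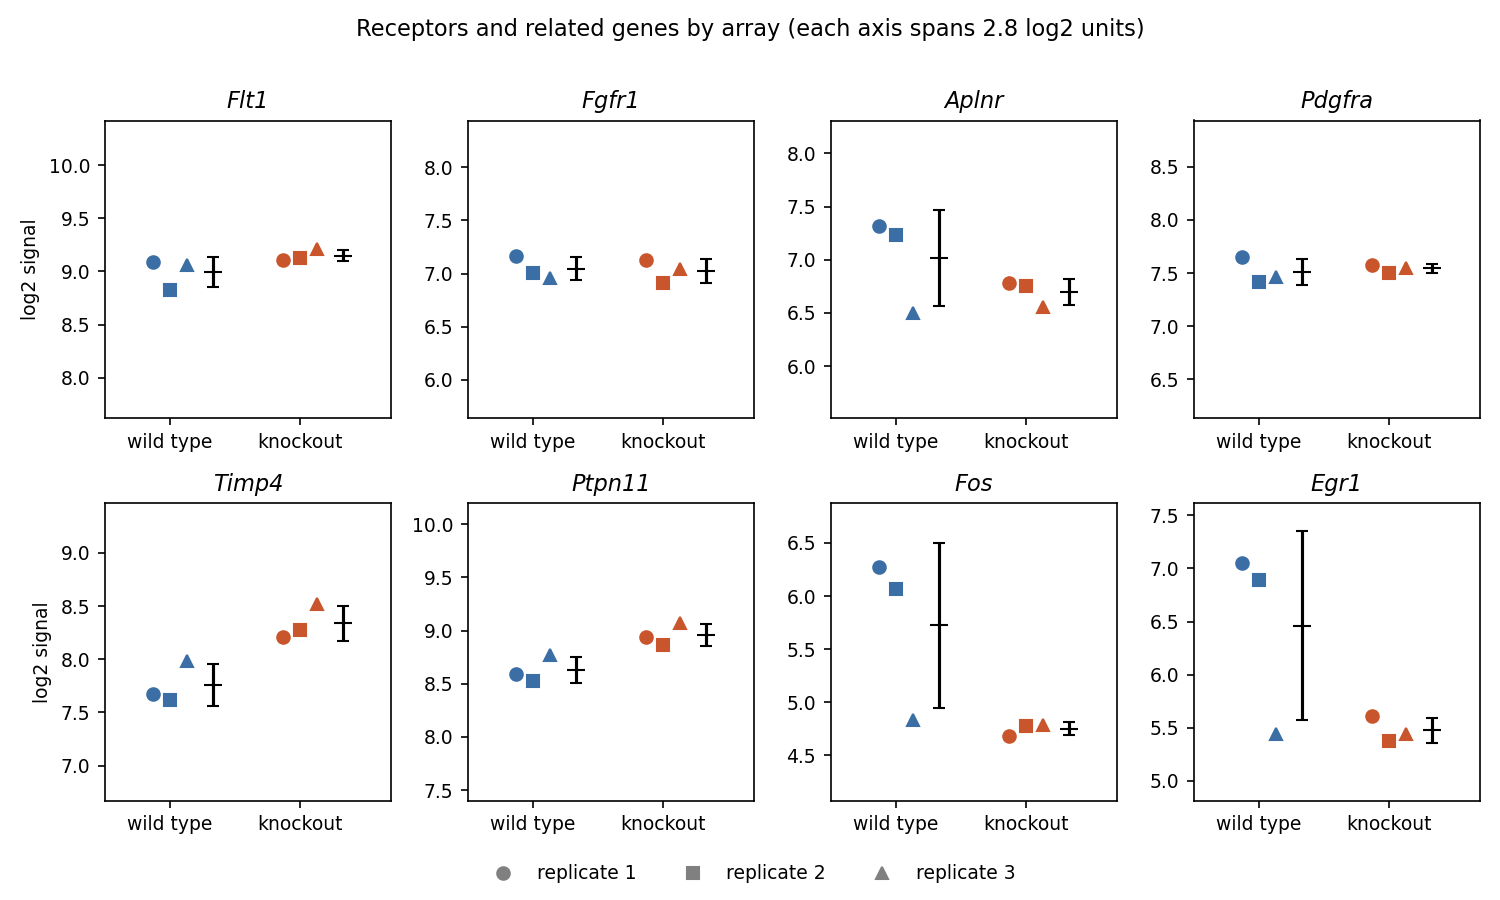
Log2 signal (vertical axis) by array of 4 receptors of the growth factors and of Timp4, Ptpn11, Fos and Egr1, with wild-type arrays in blue, knockout arrays in orange and black bars for the mean ± SD (n = 3). Fos and Egr1 are high in wild-type replicates 1 and 2, and Timp4 and Ptpn11 are higher on all knockout arrays than on any wild-type array.

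Regulators of Vegf genes, among them the oxygen-sensing factors, were lower at 17 of 20 genes and higher at 3, with a median of -0.09 where 62.7% of named genes were lower. None passed the limma test, and 1 of the 20 had an unadjusted p under 0.05, against 11.5% of named genes. That gene was Egln3, a prolyl hydroxylase that marks HIF proteins for decay, at 7.59, 7.57 and 7.21 in the knockout against 7.74, 7.68 and 8.27 in the wild type (log2 difference -0.44, SE 0.17, limma adjusted p = 0.329). Wild-type replicate 3 was the highest array for Egln3, and the difference was -0.25 without it and -0.70 with age as a covariate. Gata4, a cardiac transcription factor, measured -0.28, the coactivator gene Ppargc1b -0.23 and the hydroxylase gene Egln2 0.12. Hif1a at -0.08 and Epas1 at 0.02 are given for their place in oxygen sensing and were named after their values were seen.

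Of 16 tested inhibitors of vessel growth, 9 were higher, 6 lower and 1 equal, with a median of 0.01. None passed over all probe sets in limma, and 2 of the 16 had an unadjusted p under 0.05, both higher, against 11.5% of named genes in either direction. Timp4, a metalloproteinase inhibitor abundant in heart, measured 8.21, 8.28 and 8.52 in the knockout against 7.67, 7.62 and 7.98 in the wild type. The knockout arrays were all above the wild-type arrays, with a log2 difference of 0.58 (SE 0.12, 1.49-fold, limma adjusted p = 0.112). Leaving unannotated probe sets out gave Timp4 a limma adjusted p of 0.0231. In that setting 361 probe sets passed, against 1 in the main test. Timp4 did not pass under the other 14 of 15 alternatives, where its adjusted p reached 0.271. Timp3, which blocks the binding of VEGF to Kdr, measured 0.21 (SE 0.07), while Timp1 measured -0.20 and the chemokine gene Cxcl10 -0.22.

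**Figure D5:**
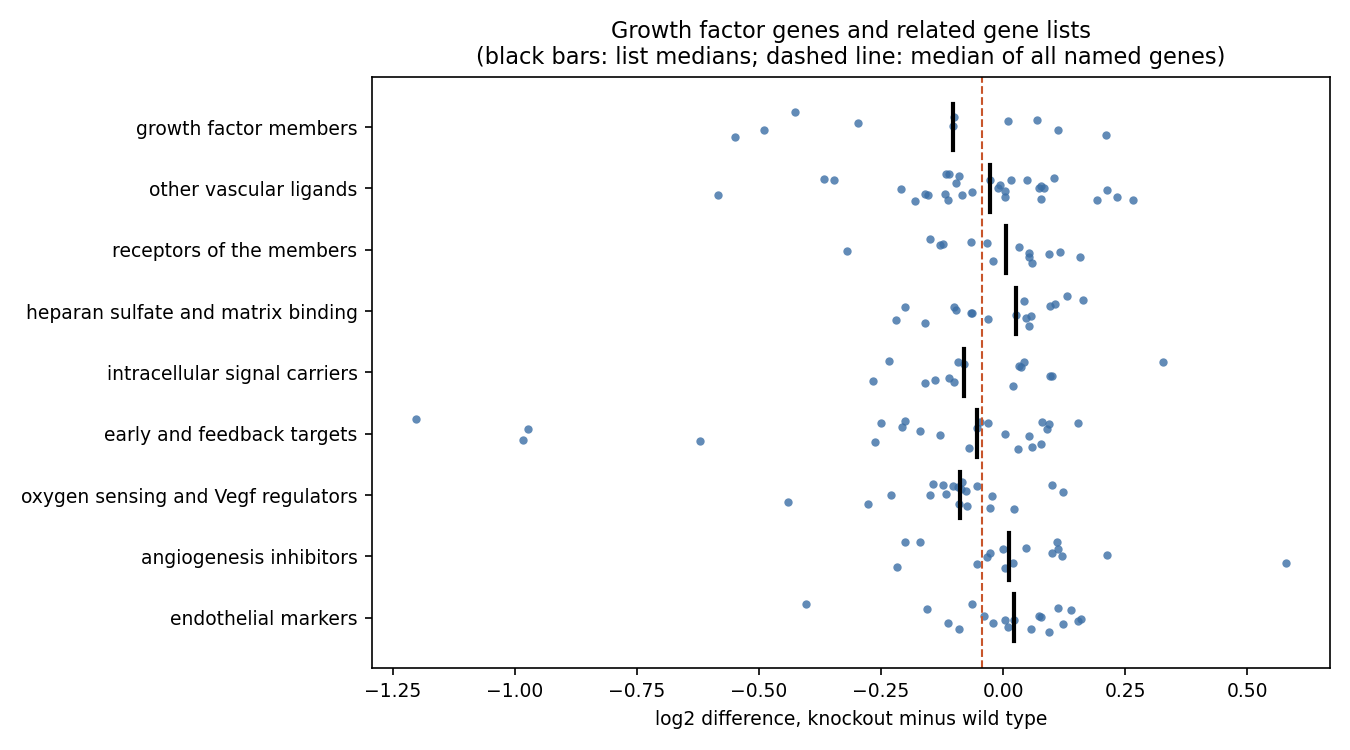
Log2 difference, knockout minus wild type, of each tested gene (points) in the growth factor group and in 8 related lists, with black bars for list medians and a dashed line for the median of all named genes, -0.04. List medians lie between -0.10 and 0.03, and the early targets reach -1.20 at Nr4a1.

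Markers of the cells that make or read these factors were set beside them. Endothelial markers gave 12 higher and 7 lower of 19, with a median of 0.02, and array means of 7.97 to 8.01 in the knockout and 7.90 to 8.09 in the wild type. Pericyte and smooth muscle markers gave 7 higher and 6 lower of 13, at 7.47 to 7.54 against 7.48 to 7.55, and fibroblast markers 5 higher and 7 lower of 12, at 7.90 to 8.05 against 7.96 to 7.99. Tie1 and Pdgfra stand in these lists and among the receptors.

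Leukocyte markers gave 2 higher and 12 lower of 14 tested, with a median of -0.17 and array means of 6.60 to 6.80 in the knockout and 6.72 to 7.08 in the wild type. Lymphatic markers gave 2 higher and 3 lower of 5, at 6.33 to 6.50 against 6.53 to 6.59. Prox1 measured -0.35 and Lyve1 -0.39, while Pdpn measured -0.02, Reln 0.08 and Mmrn1 0.04, all 5 named after their values were seen. Adipocyte markers were dim, with Adipoq below the filter, and gave 1 higher and 3 lower of 4, at 3.89 to 4.15 against 4.12 to 4.22. Epicardial markers gave 3 higher and 3 lower of 6 (4.05 to 4.28 against 4.03 to 4.39), and both red cell markers tested were lower (4.72 to 5.41 against 5.02 to 5.45). None of these markers passed the limma test, and 11.5% of named genes had an unadjusted p under 0.05. Such a p was found for 5 of 13 pericyte and smooth muscle markers, 3 of them lower and 2 higher, and for 2 of 12 fibroblast markers, both higher. It was also found for 2 of 14 leukocyte and 2 of 5 lymphatic markers, and for 1 of 19 endothelial and 1 of 14 cardiomyocyte markers, all of them lower. The part of leukocyte, lymphatic or adipocyte content in the members' differences was not tested.

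The nearest protein-coding neighbours in RefSeq were taken by position. Dnajc4, the gene next to Vegfb, measured 7.51, 7.41 and 7.25 in the knockout against 7.92, 7.61 and 7.63 in the wild type. Like Vegfb it was lowest in knockout replicate 3 and did not overlap, with a log2 difference of -0.33 (SE 0.11, limma adjusted p = 0.254). Nudt6, which overlaps Fgf2, measured 6.55, 6.51 and 6.15 against 6.58, 6.41 and 6.50, a log2 difference of -0.09 (limma adjusted p = 0.793), so its arrays did not follow those of Fgf2. Ocrl next to Apln measured -0.09 and Prkar1b next to Pdgfa -0.11, both with overlapping genotypes.

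Genes with the most similar pattern were found by Pearson correlation over the 6 arrays among 14552 other named genes. These correlations describe arrays that share their genotype difference, and with 6 points many genes reach high values. For Vegfb, 315 genes had r above 0.95, led by Cnot11, Pex3 and Fads3 (r = 0.998, 0.997 and 0.995). For Fgf2 there were 63, led by Kdelr1, Synj2 and Siglech (0.998, 0.990 and 0.989). Apln was followed most closely by Mboat7, Fem1c and Plekhb2 (0.999, 0.995 and 0.994), and Pdgfa by Phospho2, Hspb6 and Cd33 (0.998, 0.998 and 0.996). Hspb6, a small heat shock protein of muscle, measured 11.89, 11.88 and 11.59 in the knockout against 12.16, 12.25 and 12.17 in the wild type. Pex3, a peroxisome assembly gene, measured 7.24, 7.32 and 6.94 against 7.71, 7.60 and 7.55.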

How the data were processed

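Expression was measured on Affymetrix arrays from 100 ng of total RNA per sample, extracted with TRIzol per the labels' protocols. The authors deposited 1 table of log2 values, used as it stands. That the scale is log2 was settled from its range, 0.46 to 13.72. MAS5 is named in the submitters' processing notes, with no role given. The sources used here do not give scaling, background correction or the array's genome build. The platform annotation gave 1 symbol to 21789 probe sets, updated by gene identifier through the RefSeq table of GRCm38.p6 (21698 matched). Genotypes were compared, two-sided, with limma 3.58.1 in R 4.3.3 (lmFit, eBayes with an intensity trend) over the 24898 probe sets whose mean was at or above the 30th percentile, with Benjamini-Hochberg adjustment at 0.05. The script was tested on simulated data.

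A gene with several probe sets was represented by the one with the highest mean. Values are mean ± SD over 3 arrays, and the number of arrays limits the precision. No scaling moved the median of all probe sets by over 0.1. Members, lists and tests were chosen with earlier results of these data known. Named are all members, Cavin4, the 4 genes of each list with the smallest p, the main receptors and the 3 genes per chosen member with the highest correlation, besides neighbours taken by position and genes said to be named after their values were seen. Promoter windows were found for 7 members in the RefSeq table used. Alternatives were other scalings, filters and variance models, annotated probe sets only, age, array weights, the replicate number as a block and each array left out.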

Additional observations from a re-analysis of the deposited data

How the results depend on the processing

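The move of each list's median log2 difference was set against the SD between replicates of the list's median signal per array. That SD measures another quantity than the median difference, so it is a coarse yardstick. Under all 16 alternatives the medians of the members, other ligands, receptors, signal carriers, early targets, regulators, inhibitors and endothelial markers moved by less. For the members the SD was 0.18, larger than their median difference of -0.10 itself. That median was -0.26 with age as a covariate and -0.02 without knockout replicate 3, so it is not shown to be stable. The median of the heparan sulfate list, 0.03, was -0.051 with age as a covariate, and from -0.042 to 0.033 with 1 array left out. The count of probe sets past the adjusted threshold, 1, depended on the processing. It was 130 after quantile normalization, 105 after median centring, 48 with the filter at the 50th percentile, 361 with annotated probe sets only, 34 with age as a covariate, 126 with array weights, and from 0 to 11 with 1 array left out. In limma it was 0 with the replicate block, where 3257 had an unadjusted p under 0.05. The cause of these moves was not tested. Under no alternative did any of the 6 members not chosen for a difference pass. Cavin4 measured -2.91 (adjusted p = 0.0754) with the replicate block and from -3.12 to -2.78 with 1 array left out. Samples of the same number did not deviate together over the tested probe sets (correlations of -0.06, 0.02 and -0.06). That does not show whether they share anything besides a number, and the labels do not state a pairing. Whether the block fits the design is therefore not known. Fgfr1 measured -0.02 as deposited, 0.014 with quantile normalization, 0.014 when age was a covariate and 0.0015 with array weights, and from -0.072 to 0.042 with 1 array left out. Tek was 0.0022 after quantile normalization and from -0.088 to 0.037 with 1 array left out. With 1 array left out, Pdgfb ran from -0.06 to 0.055, Angpt1 from -0.225 to 0.115, Nrp1 from -0.12 to 0.0017, Pdgfra from -0.012 to 0.10 and Kdr from -0.077 to 0.14. The shares of higher and lower calls followed the scaling, since the lower share of unadjusted calls was 65.7% on the deposited scale and 51.2% once quantile normalized. Fgf2, Pgf, Vegfc and Apln were the dimmest of the members, though above the array medians of 4.60 to 4.71. Signal over background is not given in the table, so their differences may be compressed by an unknown amount.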
